A study of Homo sapiens with 12 samples.

Results

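The human genome carries a run of Krüppel-associated box (KRAB) zinc-finger genes in chromosome band 19q13.41, and the 36 genes of that run were followed here in HCT116 cells. The members were taken from a list of gene symbols for this band, and 35 of the 36 were found among the 18969 genes in the deposited tables (ZNF525 was not matched and was not analysed here). Of these 35, 24 reached a CPM (count scaled to library size) of at least 1 in at least 4 of 12 libraries. They are called the expressed members, and 20 of them reached 1 CPM in all 12 libraries. HCT116 is an established human colorectal carcinoma line. In the UNC0642 recovery group (4 libraries), cells were kept for 24 h in RPMI without methionine together with UNC0642, washed, and then given medium with methionine and no inhibitor for a further 24 h. The DMSO recovery group (4 libraries) went through the same restriction and recovery with the vehicle DMSO. The remaining 4 libraries are labelled 0 h, and the labels do not say at which side of the restriction those cells were harvested. All groups share the line and the serum-containing base medium. The dose of UNC0642 is not given in the sources used here.

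KRAB zinc-finger proteins bind DNA through arrays of C2H2 zinc fingers, and many bind transposable elements. Their KRAB domain recruits TRIM28 (KAP1), which brings in the methyltransferase SETDB1 and heterochromatin protein 1 and so places trimethyl marks on lysine 9 of histone H3 (H3K9). Many zinc-finger genes of chromosome 19 carry that mark over their own 3′ ends. UNC0642 blocks the enzymes EHMT1 (GLP) and EHMT2 (G9a), which place mono- and dimethyl marks on H3K9, and methionine feeds the synthesis of S-adenosylmethionine, the methyl donor of these enzymes.

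The deposited counts summed to between 17882236 and 19939398 per library after UNC0642 recovery, 16181056 and 20179847 after DMSO recovery, and 14658082 and 18246690 at 0 h. Testing covered 12741 of the listed genes, with a biological coefficient of variation of 3.44%. The 5 epithelial markers examined (EPCAM, CDH1, KRT8, KRT18 and KRT19) were present in every library, with summed levels of 5666 to 5828 CPM after UNC0642 recovery, 5621 to 5742 CPM after DMSO recovery and 4797 to 4900 CPM at 0 h. The 10 markers of blood, fibroblast and endothelial cells summed to 28.5 to 37.1, 27.1 to 36.0 and 20.7 to 43.5 CPM in these groups, most of it COL1A1. PTPRC, LUM and PECAM1 stayed below 1 CPM in every library. COL1A2 was above 1 CPM in 6 libraries: UNC0642 replicates 3 and 4, DMSO replicate 1 and 0 h replicates 1, 2 and 3. Gene length minus effective length, which RSEM derives from read or fragment length, was 101 to 106 bases (a short gap) in UNC0642 replicates 1 and 4, DMSO replicate 1 and 0 h replicates 3 and 4, and 120 to 127 bases (a long gap) in the other libraries. Counts of members called or their log2 fold changes are therefore also given within these classes and without those 6 libraries where the counts changed. The short-gap fit holds 1 DMSO library and the fit without the COL1A2 libraries 1 library at 0 h. In both, the spread was pooled over all libraries kept, and the lone library is assumed to vary like the other groups. The labels do not call the replicates separate cultures. The p-values therefore set a group difference only against the spread between these libraries, and that spread may be technical.

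The comparison of UNC0642 recovery with DMSO recovery asks what the inhibitor, present only during the restriction, left behind in the recovered cells. The expressed members were lower after UNC0642 recovery. Their levels summed to 197 ± 2.43 CPM after UNC0642 recovery and 299 ± 7.29 CPM after DMSO recovery (SD, n = 4 each), and the sums did not overlap (193 to 198 against 289 to 304 CPM). In edgeR's quasi-likelihood test, with Benjamini-Hochberg adjustment over all tested genes, 19 of the 24 fell and 0 rose at an adjusted p under 0.05. Over all 12741 tested genes, 2.53% fell and 2.06% rose. At an unadjusted p under 0.05, 23 members were lower and 0 higher, and DESeq2 and limma-voom also called 0 higher. The log2 fold changes of the 24 ran from -2.07 to -0.24 with a median of -0.62, beside a median of -0.00 over all tested genes. The 4 UNC0642 libraries lay below the 4 DMSO libraries for 19 members, a separation seen in that direction for 5.42% of tested genes. Among the 20 members with at least 1 CPM in all 12 libraries, 18 fell, with a median of -0.61. These are whole-culture RNA levels, in which fewer cells expressing a gene and less RNA per cell cannot be told apart. The fall was called for 16 members within the long-gap libraries, where 146 of 12741 tested genes were called lower, against 322 with all libraries. Within the short-gap libraries (3 in the 2 groups compared, 1 of them DMSO) the median over the members was -0.61. Without the 6 libraries with COL1A2 it was -0.60. Fewer members were called in those fits than with all libraries, as were fewer of all tested genes. On the log2(FPKM + 1) scale, where the added 1 understates changes of low genes, the median over the 24 members was -0.40.

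**Figure D1:**
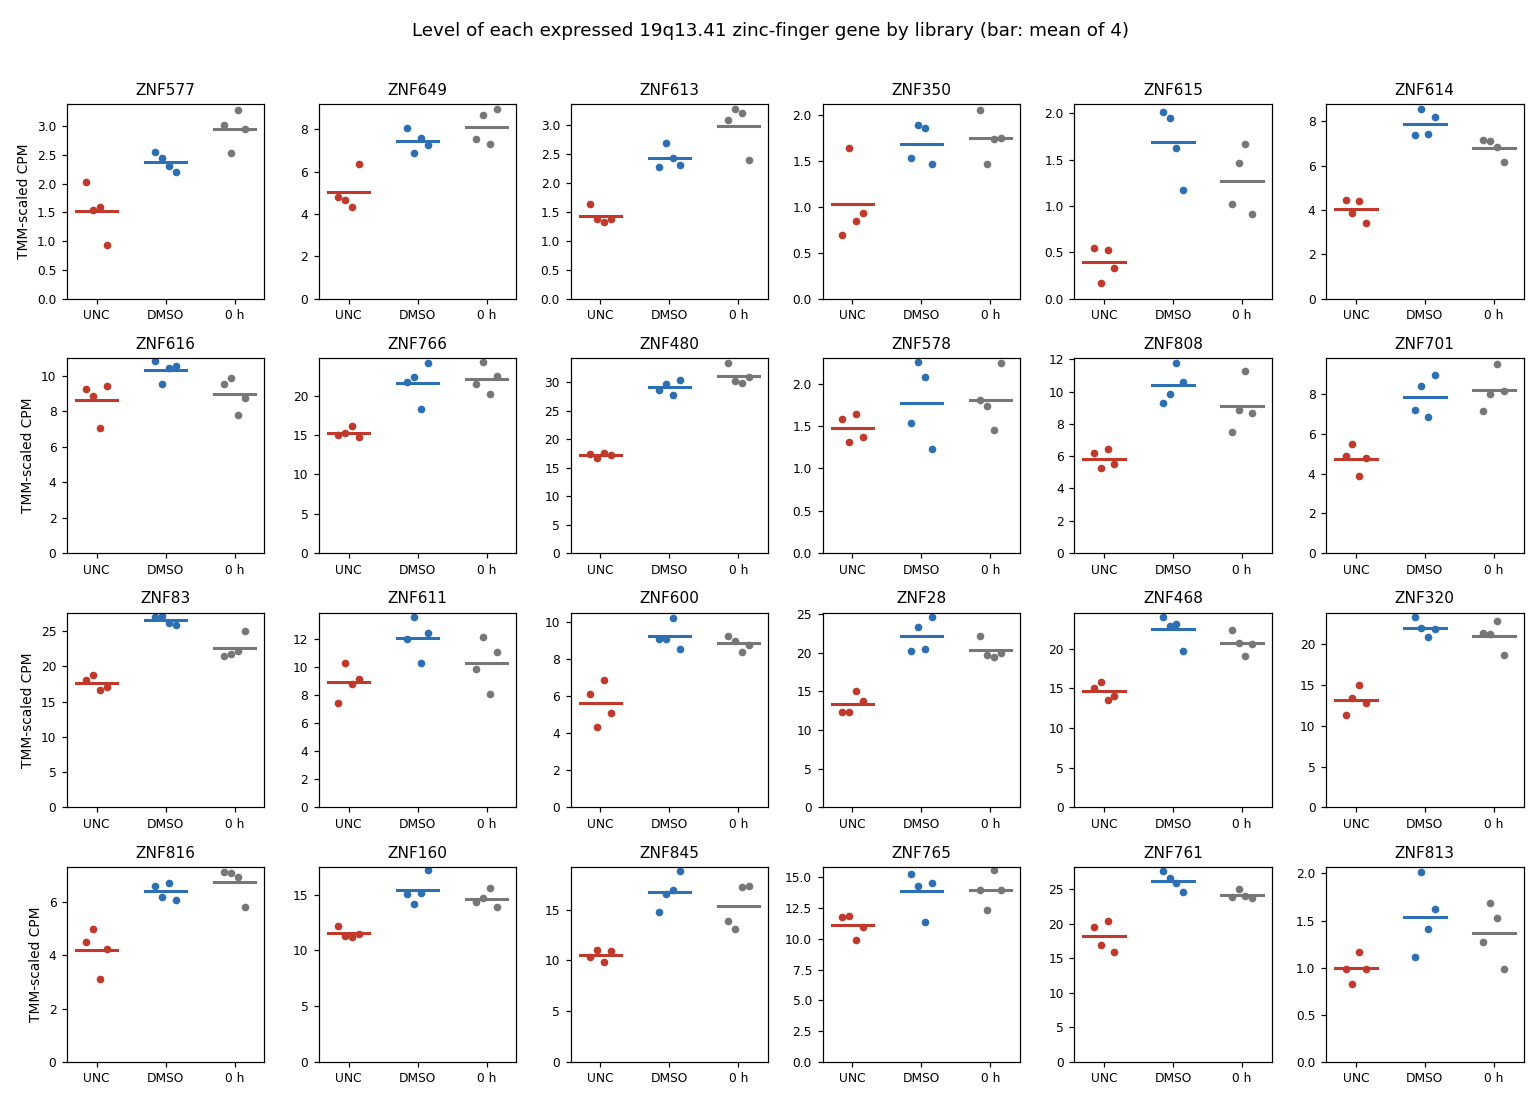
TMM-scaled CPM of each expressed member (y axis, linear, from 0) in each library (points), by group from left to right: UNC0642 recovery (UNC), DMSO recovery (DMSO) and 0 h, with a bar at the mean of 4. For 19 of 24 members every UNC0642 library lies below every DMSO library; ZNF350, ZNF578, ZNF611, ZNF765 and ZNF813 are the members whose points overlap.

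The biggest fall among the called members was in ZNF615, which was also among the least abundant. It reached 1 CPM in 7 libraries, and in all 4 of a group only after DMSO recovery. It therefore met the limit for expressed members through the group in which it was highest. ZNF615 had 0.544, 0.165, 0.529 and 0.330 CPM in the UNC0642 libraries, 2.01, 1.95, 1.63 and 1.18 CPM in the DMSO libraries and 1.03, 1.46, 1.67 and 0.911 CPM at 0 h. Every UNC0642 value lay below every value of the other groups, on as few as 3 counts in a library. The log2 fold change against DMSO was -2.07 ± 0.34 (SE; edgeR adjusted p = 7.67e-05). It was -0.38 on the log2(FPKM + 1) scale and -1.42 on the log2(FPKM + 0.1) scale. Its neighbour ZNF614 had 4.45, 3.84, 4.39 and 3.41 CPM in the UNC0642 libraries, 7.36, 8.53, 7.42 and 8.19 CPM in the DMSO libraries and 7.13, 7.09, 6.81 and 6.17 CPM at 0 h. All 3 groups were separate for ZNF614, with DMSO recovery the highest, and it was 1.95-fold lower after UNC0642 than after DMSO recovery (log2 fold change -0.96 ± 0.12, edgeR adjusted p = 7.46e-07). ZNF613, from the same end of the run, had 1.63, 1.37, 1.32 and 1.38 CPM in the UNC0642 libraries, 2.28, 2.68, 2.42 and 2.30 CPM in the DMSO libraries and 3.08, 3.26, 3.20 and 2.38 CPM at 0 h. The UNC0642 libraries were the lowest here too, with a log2 fold change of -0.75 ± 0.20 against DMSO (edgeR adjusted p = 0.0233). That call was lost without UNC0642 replicate 3, UNC0642 replicate 4 or DMSO replicate 2 (adjusted p = 0.0681, 0.0612 and 0.0746), within either gap class (0.125 for long and 0.618 for short) and without the 6 libraries with COL1A2 (0.252).

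ZNF480 gave the smallest p among the members. It had 17.4, 16.6, 17.6 and 17.3 CPM in the UNC0642 libraries, 28.6, 29.7, 27.7 and 30.4 CPM in the DMSO libraries and 33.4, 30.1, 29.9 and 30.9 CPM at 0 h. The UNC0642 libraries lay within about 1 CPM of each other and far below the rest, and the log2 fold change against DMSO was -0.76 ± 0.06 (edgeR adjusted p = 2.95e-11). ZNF808, a repressor of primate transposable elements whose loss in people impairs pancreas development, had 6.19, 5.27, 6.45 and 5.50 CPM in the UNC0642 libraries, 9.31, 9.87, 11.7 and 10.6 CPM in the DMSO libraries and 7.49, 8.89, 11.3 and 8.69 CPM at 0 h. Its UNC0642 values were the lowest without overlap, while DMSO and 0 h overlapped. The log2 fold change of ZNF808 against DMSO was -0.82 ± 0.12 (edgeR adjusted p = 7.6e-06). ZNF701, which lies next to ZNF808 in gene order, had 4.90, 5.48, 3.86 and 4.79 CPM in the UNC0642 libraries, 7.20, 8.41, 6.86 and 8.97 CPM in the DMSO libraries and 7.13, 7.99, 9.53 and 8.13 CPM at 0 h. It too was lowest in every UNC0642 library, by -0.73 ± 0.13 on the log2 scale against DMSO (edgeR adjusted p = 1.99e-04).

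ZNF320, ZNF28 and ZNF83 were among the more abundant members. ZNF320 had 11.4, 13.38, 15 and 12.8 CPM in the UNC0642 libraries, 23.3, 21.9, 20.9 and 21.9 CPM in the DMSO libraries and 21.3, 21.3, 22.9 and 18.7 CPM at 0 h, so only the UNC0642 libraries stood apart. Its log2 fold change against DMSO was -0.74 ± 0.08 (edgeR adjusted p = 1.93e-08). ZNF28 had 12.3, 12.3, 15.1 and 13.8 CPM in the UNC0642 libraries, 20.22, 23.3, 20.5 and 24.6 CPM in the DMSO libraries and 22.1, 19.6, 19.4 and 20 CPM at 0 h. The order was the same as for ZNF320, with a log2 fold change against DMSO of -0.73 ± 0.08 (edgeR adjusted p = 4.18e-08). ZNF83 had 18.0, 18.8, 16.7 and 17.1 CPM in the UNC0642 libraries, 26.9, 27.1, 26.2 and 25.9 CPM in the DMSO libraries and 21.5, 21.8, 22.2 and 25.03 CPM at 0 h. Its groups did not overlap, with UNC0642 lowest and DMSO highest, and the log2 fold change of UNC0642 against DMSO was -0.59 ± 0.06 (edgeR adjusted p = 3.96e-08).

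The other members that fell against DMSO were ZNF845 (-0.67 on the log2 scale), ZNF600 (-0.71), ZNF468 (-0.61), ZNF816 (-0.61), ZNF649 (-0.56), ZNF761 (-0.52), ZNF766 (-0.50), ZNF611 (-0.44), ZNF160 (-0.42) and ZNF765 (-0.32). ZNF649 and ZNF765 are known to bind LINE-1 elements, and ZNF160 has been reported to repress TLR4 in intestinal epithelial lines. ZNF649 averaged 5.05 ± 0.913 CPM after UNC0642 recovery and 7.44 ± 0.494 CPM after DMSO recovery, and ZNF160 averaged 11.5 ± 0.465 and 15.4 ± 1.28 CPM (SD, n = 4 each). ZNF611 and ZNF765 had overlapping groups and adjusted p-values near the threshold (edgeR, 0.0139 and 0.0423). The ZNF765 call was lost without UNC0642 replicate 1, 3 or 4, without DMSO replicate 1, 2 or 4 (adjusted p = 0.0562 to 0.153), and with DESeq2 (adjusted p = 0.0688) and limma-voom (0.0541). It was also lost with the replicate block (0.0506), in the fit of only the 8 libraries compared (0.0515), on both FPKM scales (0.156 and 0.164), within the long-gap (0.26) and short-gap (0.255) libraries and without the 6 libraries with COL1A2 (0.549). ZNF611 was lost without UNC0642 replicate 1 (0.0812) or DMSO replicate 2 (0.0738), on both FPKM scales (0.111 and 0.124), within the long-gap (0.27) and short-gap (0.207) libraries and without the 6 libraries with COL1A2 (0.0849). The short-gap fit, with its 1 DMSO library, did not call ZNF816 (-0.60 on the log2 scale), ZNF649 (-0.53), ZNF600 (-0.69) or ZNF160 (-0.35). Nor did it call ZNF845 (-0.48), ZNF808 (-0.67) or ZNF701 (-0.57). ZNF816 was also not called without the 6 libraries with COL1A2 (-0.42).

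For 5 expressed members the comparison with DMSO recovery missed the threshold. ZNF616 had 9.26, 8.83, 7.03 and 9.41 CPM in the UNC0642 libraries, 10.8, 9.50, 10.5 and 10.5 CPM in the DMSO libraries and 9.55, 9.85, 7.79 and 8.76 CPM at 0 h. The UNC0642 and DMSO values of ZNF616 did not overlap, but the gap was small, with a log2 fold change of -0.26 (95% interval -0.47 to -0.05, edgeR adjusted p = 0.155). ZNF577 had 2.03, 1.54, 1.59 and 0.935 CPM in the UNC0642 libraries, 2.54, 2.44, 2.31 and 2.21 CPM in the DMSO libraries and 3.02, 2.53, 3.27 and 2.95 CPM at 0 h. It was lowest in every UNC0642 library, at -0.63 on the log2 scale against DMSO (95% interval -1.07 to -0.19, edgeR adjusted p = 0.0912), and passed without UNC0642 replicate 1 (0.0498). ZNF350 (ZBRK1), a BRCA1-binding repressor, had 0.693, 1.65, 0.846 and 0.935 CPM in the UNC0642 libraries, 1.54, 1.89, 1.86 and 1.47 CPM in the DMSO libraries and 2.06, 1.46, 1.74 and 1.75 CPM at 0 h. The second UNC0642 library was the only one inside the range of the others. The log2 fold change of ZNF350 against DMSO was -0.71 (95% interval -1.25 to -0.17, edgeR adjusted p = 0.128), and -1.03 without that library (adjusted p = 0.0267). ZNF578 had 1.58, 1.32, 1.64 and 1.38 CPM in the UNC0642 libraries, 1.54, 2.25, 2.08 and 1.23 CPM in the DMSO libraries and 1.81, 1.74, 1.46 and 2.24 CPM at 0 h. Its groups overlapped throughout (-0.24, 95% interval -0.73 to 0.24, edgeR adjusted p = 0.658). For ZNF813 the interval ran from -1.16 to -0.08 (edgeR adjusted p = 0.212). At 4 of these 5 genes the interval lies below 0, so a missed threshold does not show that the level was the same.

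The comparison of UNC0642 recovery with 0 h shares its UNC0642 libraries with the one above. The expressed members were lower here too, with sums of 197 ± 2.43 CPM after UNC0642 recovery and 285 ± 0.75 CPM at 0 h (SD, n = 4 each). In the same edgeR test 20 of the 24 fell and 0 rose at an adjusted p under 0.05, where 23.6% of all tested genes fell and 23.4% rose. At an unadjusted p under 0.05, 20 were lower and 0 higher, and DESeq2 and limma-voom called 20 lower and 0 higher. With library totals in place of TMM factors 20 members also fell, while calls over all genes were 4072 higher and 1959 lower, where TMM gave 2983 and 3007. The median log2 fold change was -0.61 (-0.37 on the log2(FPKM + 1) scale), beside 0.01 over all tested genes, and 19 members had every UNC0642 library below every 0 h library, as had 20.1% of tested genes. Of the 20 members with at least 1 CPM in all libraries, 17 fell. ZNF480 fell by 0.85, ZNF613 by 1.06 and ZNF577 by 0.93 on the log2 scale (edgeR adjusted p = 2.12e-13, 4.88e-05 and 5.07e-04). The comparison of ZNF615 gave -1.66 ± 0.36 (edgeR adjusted p = 2.74e-04) and that of ZNF83 gave -0.36 ± 0.07 (edgeR adjusted p = 3.73e-05). ZNF616 had a value of -0.06 (95% interval -0.28 to 0.15), ZNF578 of -0.29, ZNF611 of -0.22 and ZNF813 of -0.47, and none of the 4 was called. The ZNF350 call (-0.77, edgeR adjusted p = 0.0181) was lost without UNC0642 replicate 1, UNC0642 replicate 3 or 0 h replicate 1 (0.0742, 0.0534 and 0.0622). Without the 6 libraries with COL1A2, which leaves 1 library at 0 h, 23 of the 24 members had a log2 fold change below 0. Fewer members were called lower in that fit than with all libraries, as were fewer of all tested genes. The blood marker HBA1, a globin gene, averaged 0.76 ± 0.262 CPM after UNC0642 recovery and 1.55 ± 0.191 CPM at 0 h (log2 fold change -1.02, edgeR adjusted p = 0.00603), and the globin gene HBB averaged 0.443 ± 0.198 and 1.503 ± 1.04 CPM (-1.79, adjusted p = 0.00154; SD, n = 4 each). The fibroblast gene COL1A1 went the other way, with 28.2 ± 1.97 CPM after UNC0642 recovery and 23.3 ± 4.74 CPM at 0 h (log2 fold change 0.28, edgeR adjusted p = 0.00903). The part of these marker genes in the comparison of the members with 0 h was not tested. In all, 18 members fell against both DMSO recovery and 0 h, and the UNC0642 mean was the lowest of the 3 group means for 24 of 24. The matching shares of all tested genes were not counted, and both comparisons use the same UNC0642 libraries.

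**Figure D2:**
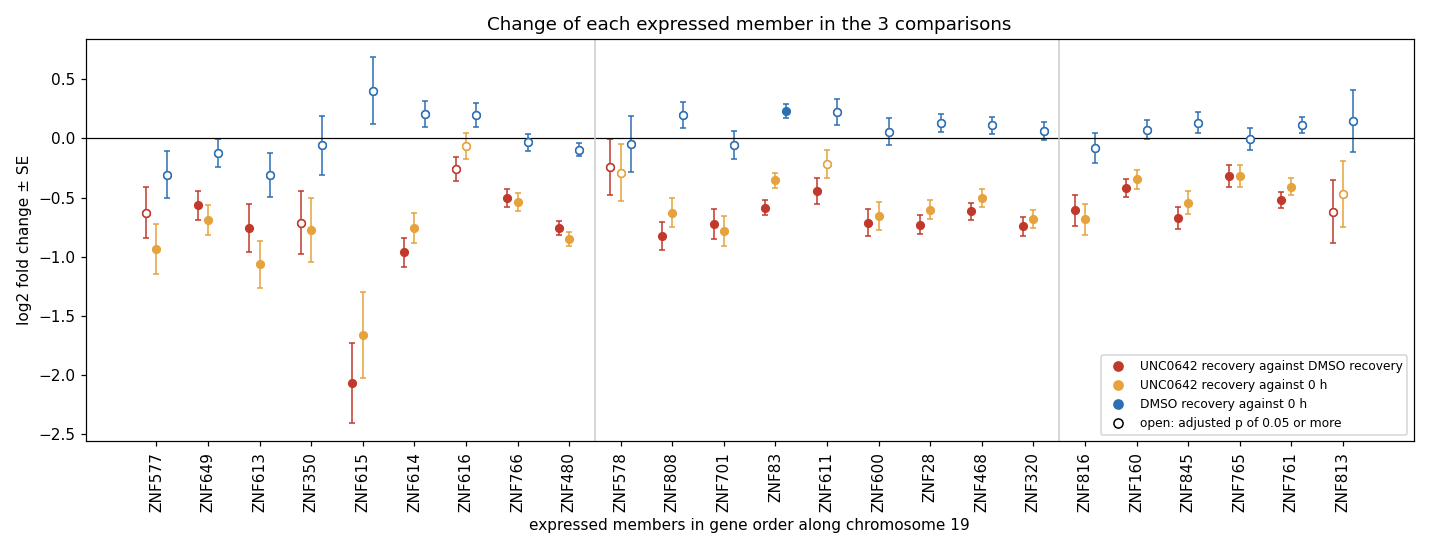
Log2 fold change ± SE (y axis) of each expressed member in gene order along chromosome 19 (x axis) for UNC0642 recovery against DMSO recovery (red), UNC0642 recovery against 0 h (orange) and DMSO recovery against 0 h (blue), with open symbols at an adjusted p of 0.05 or more and grey lines between 3 segments of 12 genes. The red values run from -2.07 to -0.24 and the blue ones from -0.31 to 0.40. The red and orange values share the UNC0642 libraries, the orange and blue ones the 0 h libraries and the red and blue ones the DMSO libraries.

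The comparison of DMSO recovery with 0 h shows the members without the inhibitor. Their sums were 299 ± 7.29 CPM after DMSO recovery and 285 ± 0.75 CPM at 0 h (SD, n = 4 each). In edgeR's test 1 of the 24 rose and 0 fell at an adjusted p under 0.05, where 22.4% of all tested genes rose and 21.7% fell. At an unadjusted p under 0.05 the counts were also 1 higher and 0 lower, and DESeq2 and limma-voom called 0 lower. With library totals in place of TMM factors 4 members rose, and calls over all genes were 3825 higher and 1838 lower, where TMM gave 2851 and 2766. The member that rose in the TMM-scaled test was ZNF83, whose DMSO values all lay above its 0 h values, with a log2 fold change of 0.23 ± 0.06 (edgeR adjusted p = 0.00281). The ZNF83 rise was not called in the short-gap fit with its 1 DMSO library (0.19, edgeR adjusted p = 0.222), nor in the fit without the 6 libraries with COL1A2 and its 1 library at 0 h (0.07, edgeR adjusted p = 0.688). Globin genes were lower after DMSO recovery than at 0 h, with log2 fold changes of -1.36 for HBA1 (edgeR adjusted p = 7.41e-04), -1.72 for HBB (0.00237) and -1.68 for HBA2 (0.0164). Of the fibroblast genes, COL1A2 (-2.49, edgeR adjusted p = 0.012), COL3A1 (-1.95, 0.0213) and DCN (-2.53, 0.019) were lower too. COL1A1, which made up most of the summed level of these markers, was higher (0.22, edgeR adjusted p = 0.0398). HBA1 averaged 0.588 ± 0.234 CPM after DMSO recovery and COL1A2 0.475 ± 0.918 CPM, against 1.55 ± 0.191 and 2.80 ± 2.89 CPM at 0 h (SD, n = 4 each). Their part in the values of the members was not tested. ZNF614 also had separate groups without passing the test (0.21, 95% interval -0.02 to 0.44, edgeR adjusted p = 0.141), so that 2 members did not overlap in that direction, where 19.3% of tested genes did. The 24 values ran from -0.31 to 0.40 with a median of 0.07, beside 0.01 over all tested genes. DMSO recovery had the highest of the 3 group means for 14 members, a share that was not counted over all tested genes. At the lower end stood ZNF613 (-0.31, 95% interval -0.69 to 0.07) and ZNF577 (-0.31, -0.71 to 0.10), and at the upper end ZNF615 (0.40, -0.17 to 0.98).

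Per gene length, the members covered a wide span of levels. In FPKM, the deposited level scaled to gene length and library size, ZNF83 was the most abundant in each group, at 6.79 ± 0.383 after UNC0642 recovery, 10.1 ± 0.195 after DMSO recovery and 8.32 ± 0.571 at 0 h (SD, n = 4 each). ZNF766 followed with 5.43 ± 0.235, 7.66 ± 0.888 and 7.53 ± 0.594 FPKM in the same groups. ZNF761 (4.50, 6.46 and 5.73 FPKM) and ZNF480 (3.78, 6.37 and 6.54 FPKM) came next by the mean of the 3 groups, and their SDs overlapped after DMSO recovery. The lowest were ZNF578, with 0.225, 0.270 and 0.268 FPKM, ZNF615, with 0.10, 0.43 and 0.31 FPKM, and ZNF813, with 0.248, 0.387 and 0.327 FPKM. The fall against DMSO recovery was called in ZNF83, the most abundant. Of the lowest members it was called only in ZNF615, which was below 1 CPM in every UNC0642 library. ZNF578 and ZNF813 were not called (edgeR adjusted p = 0.658 and 0.212).

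**Figure D3:**
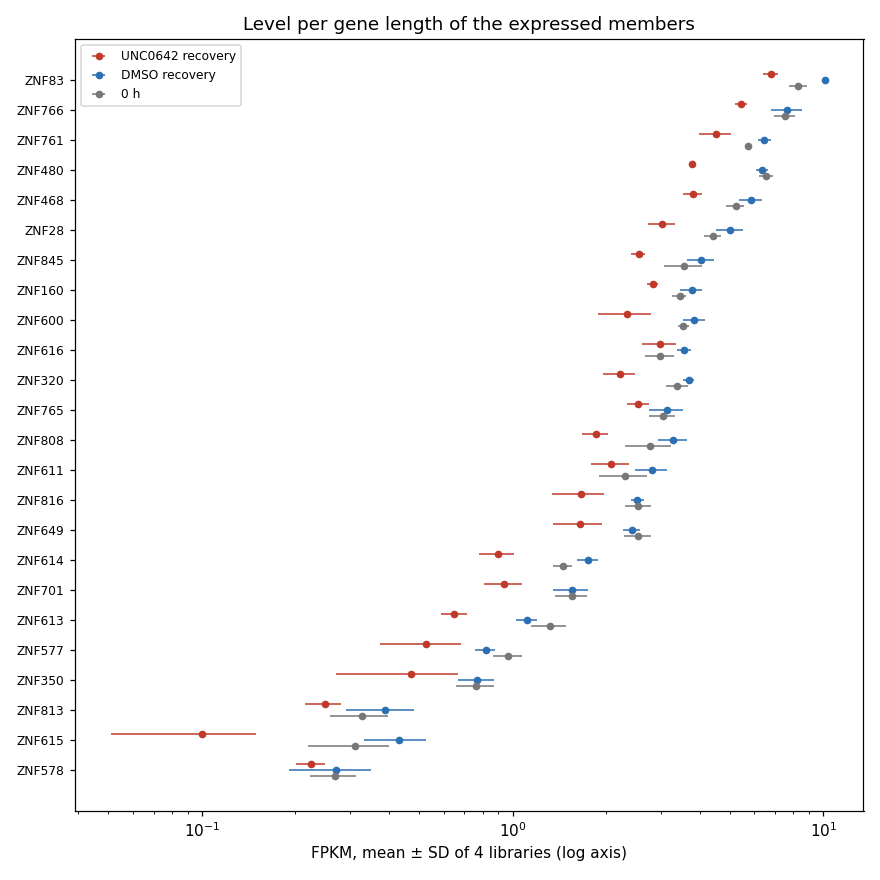
FPKM of each expressed member (x axis, log scale), as mean ± SD of 4 libraries, for UNC0642 recovery (red), DMSO recovery (blue) and 0 h (grey), with members ordered by their mean over the groups. ZNF83 leads in every group and the lowest levels are those of ZNF578, ZNF615 and ZNF813; the red mean lies left of the blue mean for each member.

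The other 11 members in the tables stayed under the limit. ZNF432 reached at most 0.834 CPM, ZNF665 0.787, ZNF347 0.675, ZNF677 0.658, ZNF841 0.491, ZNF528 0.450, ZNF610 0.183 and ZNF836 0.122 CPM in any library. ZNF331, which is imprinted in several human tissues, had at most 1 count in a library, and ZNF534 and ZNF415 had 0 counts in all 12. No change can be read for these 11.

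Along the run, the falls were spread over its whole length. Divided by gene order into 3 segments of 12 genes, 6 of 9 expressed members fell against DMSO recovery in the first segment, 8 of 9 in the middle one and 5 of 6 in the last, with median log2 fold changes of -0.71, -0.71 and -0.56. Of the 8 other genes found in the tables between the outermost members, 3 were tested. PPP2R1A, the scaffold subunit of protein phosphatase 2A, had a log2 fold change of -0.09 ± 0.03 against DMSO (edgeR adjusted p = 0.0485), a smaller value than that of any expressed member. The other two were not called: ZNF321, a ZNF816 neighbour annotated as a pseudogene, had -0.22 ± 0.21 (edgeR adjusted p = 0.654) and HERV-V1, from an endogenous retrovirus, had 0.38 ± 0.32 (edgeR adjusted p = 0.588). Outside the run, 1 of the 10 genes before it was tested, ZNF175 (-0.25 ± 0.10, edgeR adjusted p = 0.151), and 4 of the 10 after it, of which 0 were called (edgeR, log2 fold changes from -0.55 to 0.84).

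Other genes with a ZNF symbol were set beside the run. On chromosome 19 outside the run, 55 of 138 tested ZNF genes fell and 0 rose against DMSO recovery, with a median of -0.36. On other chromosomes, 22 of 230 fell and 1 rose, with a median of -0.03. The share lower was 79.2% for the 24 expressed members, 39.9% for the other ZNF genes of chromosome 19 and 9.57% for those elsewhere. For DMSO recovery against 0 h the medians were 0.07, -0.04 and -0.04. The other ZNF genes were taken by symbol alone, without a check for a KRAB domain, which all 24 members have as a pattern. They only had to be tested, while the members also had to reach 1 CPM in 4 libraries. The lists therefore differ in more than position, and the differences between them were not tested.

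**Figure D4:**
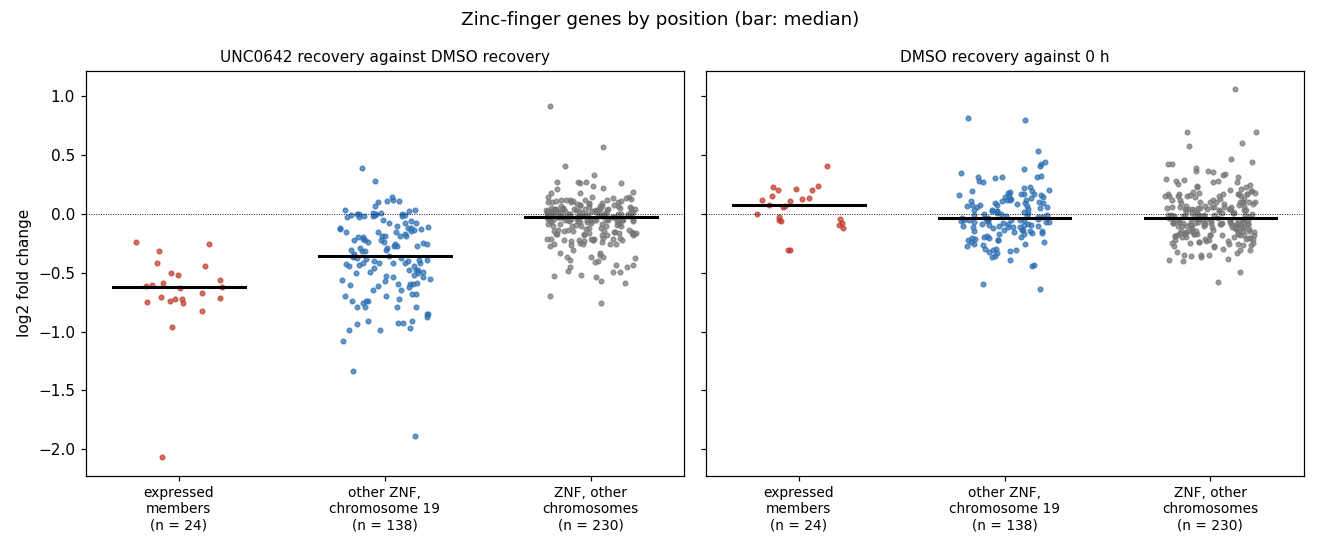
Log2 fold change (y axis) of the 24 expressed members (red), of 138 other tested ZNF genes on chromosome 19 (blue) and of 230 on other chromosomes (grey), each point a gene and each bar a median, for UNC0642 recovery against DMSO recovery (left) and DMSO recovery against 0 h (right). On the left the medians are -0.62, -0.36 and -0.03, and on the right 0.07, -0.04 and -0.04; the horizontal scatter has no meaning.

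The partners of KRAB proteins and the H3K9 methylation machinery were followed as a list of 26 genes, of which 25 were tested (FAM208A was not matched). Against DMSO recovery, 4 of the 25 fell after UNC0642 recovery and 0 rose, where 2.53% of all tested genes fell and 2.06% rose, and the median was -0.02. Those that fell were ZNF274, ATF7IP, ATRX and RBBP4. ZNF274, a KRAB zinc-finger protein that binds the 3′ ends of zinc-finger genes together with TRIM28 and SETDB1, had 3.96, 3.78, 4.12 and 3.85 CPM in the UNC0642 libraries, 7.62, 6.52, 8.83 and 6.57 CPM in the DMSO libraries and 10.4, 8.83, 8.48 and 9.12 CPM at 0 h. The UNC0642 values of ZNF274 were lowest without overlap (-0.91 ± 0.12 against DMSO, edgeR adjusted p = 4.41e-06). ATF7IP, which stabilises SETDB1 in the nucleus, was at -0.25, the chromatin remodeller ATRX at -0.19 and the histone chaperone RBBP4 at -0.09 (edgeR adjusted p = 0.00785, 0.0166 and 0.0351). Set against 0 h, ZNF274 was lower after UNC0642 recovery (-1.23, edgeR adjusted p = 5.36e-10) and RBBP4 higher (0.24, 1.6e-09). ATF7IP (-0.14, edgeR adjusted p = 0.0513) and ATRX (-0.02, 0.761) were not called there. TRIM28 averaged 1236 ± 26.5 CPM after UNC0642 recovery and 1239 ± 16.8 CPM after DMSO recovery (-0.00 ± 0.02, edgeR adjusted p = 0.968), and SETDB1 averaged 38.6 ± 2.81 and 40.4 ± 2.69 CPM (-0.07 ± 0.06, adjusted p = 0.575; SD, n = 4 each). EHMT1 and EHMT2, the targets of UNC0642, had values of -0.00 ± 0.04 and -0.01 ± 0.03 (edgeR adjusted p = 0.997 and 0.931). TRIM28, SETDB1 and EHMT1 were lower than at 0 h after UNC0642 recovery (-0.13, -0.28 and -0.13, edgeR adjusted p = 1.44e-06, 8.85e-05 and 0.00478). After DMSO recovery these genes were lower than at 0 h too (-0.13, -0.21 and -0.13, edgeR adjusted p = 2.56e-06, 0.00203 and 0.00543). EHMT2 was not called against 0 h after either recovery (-0.04 and -0.03, edgeR adjusted p = 0.347 and 0.5). RNA levels give no reading of enzyme activity or of the H3K9 marks. Against 0 h, 3 of the 25 rose and 11 fell after UNC0642 recovery, and 5 rose and 10 fell after DMSO recovery, beside shares of all tested genes of 23.4% and 23.6%, and of 22.4% and 21.7%.

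All 24 expressed members have a coding transcript in GENCODE v29 whose longest reading frame holds a KRAB A-box pattern. C2H2 zinc fingers were counted in the reading frame of each gene that holds the most, which need not be the one with the KRAB pattern. They numbered 7 to 26 with a median of 12.5, from 7 in ZNF577 and ZNF701 to 26 in ZNF845. Stretches shared between genes can make read assignment uncertain. In ZNF320, 69.4% of 50-base windows, pooled over its transcripts, also occur in transcripts of ZNF468. The median share of windows found in any other member was 3.12%. The reading frames counted for ZNF320 and ZNF468 both held 509 residues and 11 fingers. Whether the shared windows come from similar genes or from transcripts annotated across both genes was not tested. The level of either gene may hold reads of the other, which was not tested either. RSEM assigns shared reads in fractions, and 7 expressed members had non-whole counts in all 12 libraries. Of these 7, 5 fell against DMSO recovery, with a median of -0.52. Of the 14 with non-whole counts in some libraries 14 fell, with a median of -0.72, and of the 3 with whole counts throughout (ZNF577, ZNF350 and ZNF616) 0 were called, with a median of -0.63. These sequence features come from a GRCh38 annotation, while the submitters' processing notes name hg18.

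Promoters were read from RefSeq on GRCh38.p14 as 250 bases before to 50 after each annotated start, and 30 of the 36 members, 20 of the 24 expressed, had an entry. They are shown because the members moved together, for ZNF614 (the largest called fall at more than 1 CPM in every library), ZNF320 and ZNF83 (abundant members that fell) and ZNF616 (the most abundant member not called). Sequences run 5′ to 3′ in the direction of the gene, and capitals mark matches to the motifs spelled out after them, on either strand.
ZNF614, chr19:52028330-52028629, minus strand: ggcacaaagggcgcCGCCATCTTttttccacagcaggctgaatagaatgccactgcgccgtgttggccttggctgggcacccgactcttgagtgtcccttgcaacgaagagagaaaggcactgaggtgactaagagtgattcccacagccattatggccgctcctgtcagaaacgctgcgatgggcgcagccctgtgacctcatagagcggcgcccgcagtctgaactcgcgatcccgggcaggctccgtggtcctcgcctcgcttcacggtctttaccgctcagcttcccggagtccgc
ZNF320, chr19:52897645-52897944, minus strand: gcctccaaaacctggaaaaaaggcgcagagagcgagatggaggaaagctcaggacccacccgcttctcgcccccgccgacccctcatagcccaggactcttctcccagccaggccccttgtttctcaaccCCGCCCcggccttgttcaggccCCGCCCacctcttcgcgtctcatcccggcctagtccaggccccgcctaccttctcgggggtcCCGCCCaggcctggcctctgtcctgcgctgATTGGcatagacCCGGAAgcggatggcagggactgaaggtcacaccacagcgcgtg
ZNF83, chr19:52690447-52690746, minus strand: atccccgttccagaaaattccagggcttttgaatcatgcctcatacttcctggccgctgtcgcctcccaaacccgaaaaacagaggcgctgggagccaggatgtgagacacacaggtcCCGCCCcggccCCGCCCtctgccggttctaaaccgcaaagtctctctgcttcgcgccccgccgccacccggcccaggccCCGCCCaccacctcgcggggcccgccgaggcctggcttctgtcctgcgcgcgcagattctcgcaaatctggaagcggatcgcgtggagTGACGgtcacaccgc
ZNF616, chr19:52139889-52140188, minus strand: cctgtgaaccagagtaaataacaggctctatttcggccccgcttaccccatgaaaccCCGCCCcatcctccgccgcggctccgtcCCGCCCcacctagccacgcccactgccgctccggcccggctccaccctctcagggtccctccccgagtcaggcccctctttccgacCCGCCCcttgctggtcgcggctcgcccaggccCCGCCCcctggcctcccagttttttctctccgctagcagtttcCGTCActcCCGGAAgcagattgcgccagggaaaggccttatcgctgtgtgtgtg

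Motifs were searched by their exact letters on both strands, and no motif searched contains another. The GC box, GGGCGG, occurs 3 times each in the promoters of ZNF320 and ZNF83 and 4 times in that of ZNF616, and was held by 80.0% of the 20 expressed members with an entry, against 44.6% of 27303 promoters of the same length and 64.4% of 222 other ZNF genes of chromosome 19. The ETS core, CCGGAA, lies just after the start in ZNF320 and ZNF616, at positions 7 and 5 with the start as 1, and was held by 60% of the 20 members, against 17.6% of all promoters and 53.6% of the other ZNF genes of the chromosome. Of the 10 other members with an entry, which were under the limit or not matched, 9 held GGGCGG and 9 held CCGGAA. ZNF614 has no GC box in this window. It has the YY1 motif, AAGATGGCG, in reverse complement with its first base at -236, a match held by 10% of the 20 (ZNF614 and ZNF615) and 1.85% of all promoters. The NFY motif, CCAAT, was held by 25% of the 20 and 35.7% of all promoters. The core of the cAMP response element, TGACG, was held by 45% of the 20 and 25% of all. The TATA motif, TATAAA, was held by 0 of the 20 and 12% of all, and the NRF1 motif, GCGCATGC, by 0 of the 20 and 3.27% of all. Among the 222 other ZNF genes of chromosome 19, 2.7% held TATAAA and 4.05% GCGCATGC. AAGATGGCG was held by 3.15% of those 222, CCAAT by 55.9% and TGACG by 33.3%. The median GC content of the 20 was 65.2% (51.3% to 72.7%) against 58.3% over all promoters, and they held a median of 25 CpG sites against 14. Both ZNF616, which was not called, and ZNF320 and ZNF83, which fell, carry GC boxes, and a match is a description of these letters only.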

How the data were processed

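RNA of 12 HCT116 libraries in 3 groups of 4 was analysed, grouped by titles and treatment labels. RSEM 1.2.4, Bowtie and build hg18 were used, per the submitters' processing notes. The strand used in counting is not given in the sources used here. The deposited tables hold, per gene, expected counts (estimates that need not be whole), FPKM, and lengths in bases, per the file headers. Of the expected counts above 0, 53.3% to 57.6% per library were whole within 0.005. The deposited FPKM values were used only for levels per length and as an alternative unit.

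Counts were rounded and tested with edgeR 4.0.16 in R 4.3.3 (filterByExpr, TMM factors, quasi-likelihood F-test, all 12 libraries in 1 fit, two-sided, Benjamini-Hochberg over 12741 genes). A gene was called at an adjusted p under 0.05. CPM are TMM-scaled, while the limit of 1 CPM in 4 libraries used unscaled CPM. No pair of libraries within a group agreed within sampling noise (lowest chi-square per degree of freedom 2.04). The main edgeR fit and limma-voom were tried on counts simulated with the same dispersion for every gene. The other alternatives were not tried on simulated counts. The members and lists were chosen with earlier results of these data known. Members given with a value in every library are the 8 with the largest log2 fold change among those called in UNC0642 against DMSO recovery, up to 4 called in DMSO recovery against 0 h, and the 4 with the highest CPM not called.

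Alternatives were RLE factors, library totals only, effective-length offsets, no filter and a CPM filter. Others were unrounded counts, a replicate block, leaving out each library, a fit of only the 8 libraries compared, limma-voom 3.58.1, DESeq2 1.42.0, limma on log2(FPKM + 1) and log2(FPKM + 0.1), and length-gap class (split at 110 bases) as a covariate. Within-class fits and leaving out 6 libraries with COL1A2 above 1 CPM were chosen after seeing the data. Chromosomes came from a RefSeq GRCh38 table (99.1% of genes matched). Neighbouring genes were matched by symbol or RefSeq synonym. Zinc fingers, the KRAB pattern and shared windows were computed from GENCODE v29 transcripts in place of a protein table.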

Additional observations from a re-analysis of the deposited data

Results flagged for a closer look

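ZNF816 in 0 h replicate 4 stood apart from its group: it had 5.82 CPM, where the other 0 h libraries had 6.95 to 7.13 CPM. The gap to the nearest of them was 0.864 of the group's range, above Dixon's 95% critical value for 4 samples. It was 1 flag in 72 groups of 4 libraries examined, and chance flags about 1 in 20 groups.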

How the results depend on the processing

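No alternative called a member higher after UNC0642 recovery, or lower after DMSO recovery than at 0 h. Members called lower after UNC0642 than after DMSO recovery (19) numbered 9 within the short-gap libraries, of which 9 were among the 19, and 15 to 19 under the other settings. Leaving out each library gave 16 to 20. Against 0 h (20), the count was 12 without the 6 libraries with COL1A2 and 18 to 20 otherwise, and 19 to 21 with each library left out. Members called higher after DMSO recovery than at 0 h (1) numbered 4 with library totals only, 2 with the replicate block, 3 with limma on log2(FPKM + 1), 3 within the long-gap libraries, 0 within the short-gap libraries and 0 without the 6 libraries with COL1A2, and 1 to 2 with each library left out. The short-gap fit has 1 DMSO library and the fit without the COL1A2 libraries 1 at 0 h, so their counts rest on spread pooled from the other groups. Calls over all tested genes were also fewer in both fits. The cause was not tested in any of these cases. The median over the members moved to -0.40 against DMSO recovery (-0.62) and -0.37 against 0 h (-0.61) on log2(FPKM + 1). With the block, 18 members were lower after UNC0642 than after DMSO recovery and ZNF611 was the added rise against 0 h (0.23, adjusted p = 0.0462). Same-numbered libraries did not deviate together (correlations of -0.076 to 0.052; 2 of 12 libraries correlated best with their own number), so the numbers were not taken to pair the samples.

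Of 1728 alternative values for the 24 expressed members, 1622 kept direction and call, 53 lost the call, 15 gained it and 38 changed sign, none of them called. In UNC0642 recovery against 0 h the sign changed in ZNF616, with 0.17 within the short-gap libraries, 0.04 without the 6 libraries with COL1A2 and -0.13 to 0.02 with each library left out. The rest were in DMSO recovery against 0 h. With each library left out, ZNF350 gave -0.14 to 0.03, ZNF578 -0.18 to 0.10, ZNF701 -0.13 to 0.02, ZNF765 -0.06 to 0.08 and ZNF766 -0.10 to 0.04. With library totals, ZNF578 gave 0.01, ZNF765 0.05 and ZNF766 0.02. ZNF765 gave 0.00 with no filter and with the CPM filter and 0.03 with gap class as a covariate. On log2(FPKM + 1), ZNF350 and ZNF578 gave 0.00, ZNF765 0.03 and ZNF766 0.02, and on log2(FPKM + 0.1), ZNF350 gave 0.00, ZNF765 0.04 and ZNF766 0.02. Within the long-gap libraries, ZNF578 gave 0.04, ZNF701 0.10 and ZNF765 0.03. Within the short-gap libraries, ZNF765 gave 0.05, ZNF766 0.02, ZNF816 0.05, ZNF808 -0.10, ZNF813 -0.18 and ZNF845 -0.23. Without the 6 libraries with COL1A2, ZNF613 gave 0.04 and ZNF816 0.12. Depth limits the least abundant members, where a library can hold as few as 3 counts.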
